A study of Homo sapiens with 25 samples.

Results

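Of 12562 LSD1 peaks called in DMSO-treated NB4 cells, 3245 (25.8%) overlapped an H3K4me3 peak of the same condition and no GFI1 peak. These are called promoter-type LSD1 sites without GFI1. They were chosen from 3 peak lists, LSD1 in DMSO, H3K4me3 in DMSO and GFI1 in untreated cells, with 1 shared base counting as overlap. They made up 41.9% (95% exact binomial interval 40.8 to 43.0%) of the 7742 promoter-type LSD1 sites, the remaining 4497 having GFI1. Of the other LSD1 sites, 2637 had GFI1 without H3K4me3 and 2183 had neither. Promoter-type is a definition by mark, since gene positions on the hg18 build of the lists were not used here.

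NB4 is an established human line of acute promyelocytic leukemia whose cells mature when given retinoic acid (RA). Cells were treated for 24 h with the LSD1 inhibitor MC_2580 (the labels state no dose), with RA at 0.01 µM (low-dose RA), with RA at 1 µM (high-dose RA), with MC_2580 plus low-dose RA (the combination), or with the solvent DMSO. ChIP-seq was run for H3K4me1, H3K4me2, H3K4me3 and H3K27ac in these 5 conditions, for LSD1 with MC_2580 and in DMSO, and for GFI1 in untreated cells, with 1 library for each antibody and condition. The H3K4me3 sample of the combination names RA at 1 µM in its title and 0.01 µM in its treatment field, and it was used here as the treatment field has it. With 1 library per group no difference between conditions could be tested against replicates. All intervals cover counting error over sites, and sites are not replicates of a condition.

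LSD1 (KDM1A) is a demethylase that removes methyl groups from mono- and dimethylated lysine 4 of histone H3. It is also a subunit of the CoREST corepressor complex, which contains histone deacetylases. It does not act on H3K4me3, the mark of promoters that are active or can become so. GFI1 is a zinc-finger transcriptional repressor that brings LSD1 to DNA through its SNAG domain, so sites without it are those where this recruiter was not called. H3K4me1 and H3K4me2 border promoters and mark enhancers, and H3K27ac marks active promoters and enhancers.

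The lists that bear on these sites differed in length and filtering. H3K27ac had 24552 peaks with MC_2580, 55793 with low-dose RA, 38808 with high-dose RA, 41191 in the combination and 32789 in DMSO. H3K4me3 had 26271 to 29872 peaks in the 4 treatments and 21688 in DMSO. The deposited score of each peak is the authors' value, and scores of sites were compared only within a list. A minimum score set for several lists at once, and lists cut to equal length by score, appear only as alternatives, since the scores of separate lists may not share a scale. Gaps in the peak numbering show that the LSD1 lists had been filtered, with 26.1% of the numbers left for MC_2580 and 24.7% for DMSO. The depth behind each list is unknown.

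LSD1 peaks at promoter-type sites without GFI1 were narrower and scored lower than those with GFI1. Their median width was 2097 bases (quartiles 1655 and 2688), against 2631 bases (1981 and 3577) at promoter-type sites with GFI1. The widest spanned 8625 bases, against 24272 bases among sites with GFI1. Within the LSD1 list the median score was 356 without GFI1 and 509 with GFI1. Of the sites without GFI1, 13.4% lay in the top quartile of all LSD1 peaks by score and 31.2% in the lowest quartile, against 37.8% and 15.7% of those with GFI1. Since a wider peak meets a GFI1 peak more easily, the rule itself favours narrow peaks here, and the share of this in the width difference was not tested. Without H3K4me3 and without GFI1 the LSD1 peaks were narrower still, with a median of 1693 bases and a median score of 325.

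The H3K4me3 peaks that held these sites were broad. The 3245 sites lay in 3158 H3K4me3 peaks, of which 3075 held 1 site, 79 held 2 and 4 held 3. Counted by site, the H3K4me3 peak had a median width of 3012 bases without GFI1 and 3359 bases with GFI1. By comparison, the 11584 H3K4me3 peaks in DMSO without LSD1 and GFI1 had a median width of 1939 bases, against 2966 bases for the 3158 peaks holding the sites without GFI1. Width here comes from the list that chose the sites, and a wide H3K4me3 peak overlaps an LSD1 peak more easily.

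Within the H3K4me3 peak the LSD1 centres gathered in the middle. The centre fell inside the peak at 93.5% (92.6 to 94.4%) of sites without GFI1 and at 92.4% (91.6 to 93.2%) of those with GFI1. It lay in the middle one of 3 equal parts of the peak at 50.1% (48.4 to 51.9%) without GFI1 and at 51.0% (49.5 to 52.5%) with GFI1, so the interval of each held the other's value. For centres inside the peak neither interval held the other's value. In both classes the outermost sixths, which include centres beyond an edge, held few sites, with 18.4% and 18.5%. The median distance between the LSD1 centre and the H3K4me3 centre was 471 bases without GFI1 and 508 bases with GFI1.

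LSD1 peaks without GFI1 filled less of the H3K4me3 peak. These measures depend on LSD1 peak width, on which the rule bears, so they are a description of the chosen sites and not a separate difference between the classes. Without GFI1, 46.2% of LSD1 peaks lay wholly inside the H3K4me3 peak, 39.4% crossed 1 edge and 14.5% spanned it from end to end. With GFI1 these shares were 41.0%, 38.9% and 20.1%. A median of 65.0% of the H3K4me3 peak was covered by the LSD1 peak without GFI1, and 72.6% with GFI1. In the broadest quartile of H3K4me3 peaks, from 4425 to 17482 bases, the LSD1 median was 2303 bases and only 37.8% of sites without GFI1 were centred in the middle part. In the narrowest quartile, from 607 to 1956 bases, the LSD1 median was 1872 bases, so that LSD1 width changed little while H3K4me3 width changed several-fold.

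**Figure D1:**
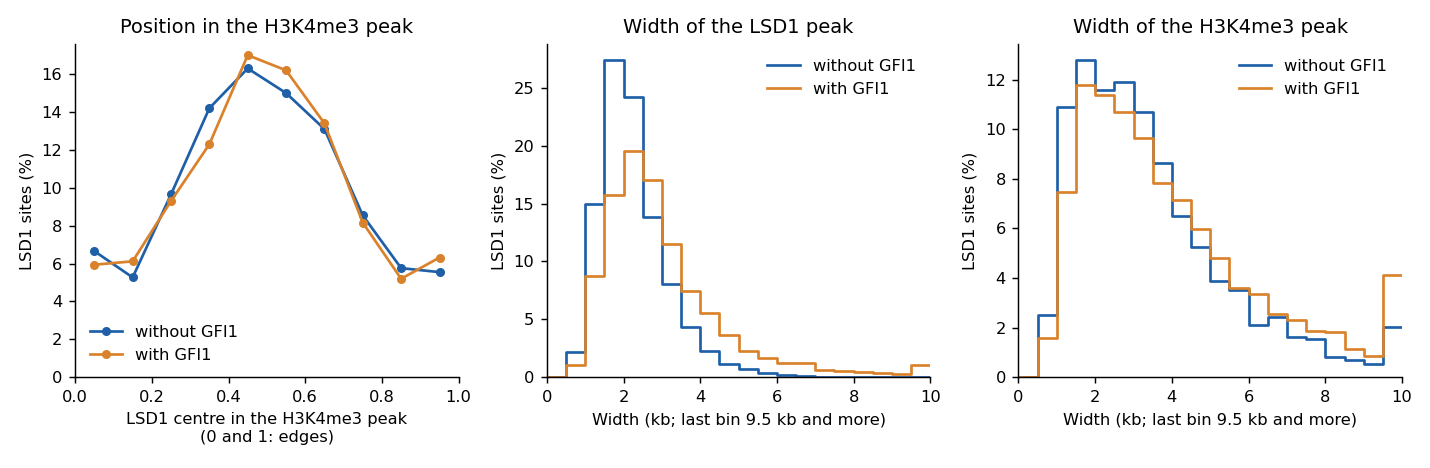
Left, position of the LSD1 centre across its H3K4me3 peak in DMSO (0 and 1 are the edges, orientation by genome coordinate, centres beyond an edge placed at it), as a share of sites in each of 10 equal bins. Middle and right, widths in kb of the LSD1 peak and of the H3K4me3 peak, for sites without GFI1 (blue) and with GFI1 (orange). The position curves run together, highest near the middle at 16.3% of sites without GFI1, while the LSD1 widths without GFI1 sit lower, with a median of 2097 against 2631 bases.

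The same measurement in the peaks of the other marks placed LSD1 most centrally in H3K27ac. Among sites without GFI1 that had a peak of the mark in DMSO, LSD1 was centred in the middle part of 59.9% (58.1 to 61.7%) of H3K27ac peaks. For H3K4me1 it was 46.2% (44.5 to 48.0%) and for H3K4me2 45.8% (44.1 to 47.6%), both below the 50.1% of H3K4me3. The outermost sixths held 10.4% of centres in H3K27ac peaks and 27.7% in H3K4me2 peaks. H3K4me2 peaks had the smallest median width at these sites, 2089 bases, against 4173 bases for H3K27ac and 5314 bases for H3K4me1. With GFI1 the shares centred in the middle part were 61.0%, 49.1% and 46.4% for H3K27ac, H3K4me1 and H3K4me2.

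In DMSO most sites without GFI1 carried the other 3 marks, which the rule did not use. H3K4me1, H3K4me2 and H3K27ac were all called at 2850 of 3245 sites (87.8%), and at 88.2% of those with GFI1. H3K4me1 and H3K4me2 without H3K27ac marked 294 sites (9.06%), and H3K4me1 with H3K27ac but no H3K4me2 another 71. H3K4me3 stood alone at 10 sites. Over all 5 conditions and 4 marks, 2349 sites (72.4%, 70.8 to 73.9%) kept a peak in all 20 lists, and 72.6% (71.3 to 73.9%) of those with GFI1 did. This count uses H3K4me3 in DMSO, which is present by rule. The mark of the 4 that varied most between conditions was H3K27ac, called in all 5 conditions at 79.1% of sites without GFI1, against 97.3% for H3K4me1, 95.6% for H3K4me3 and 93.4% for H3K4me2.

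**Figure D2:**
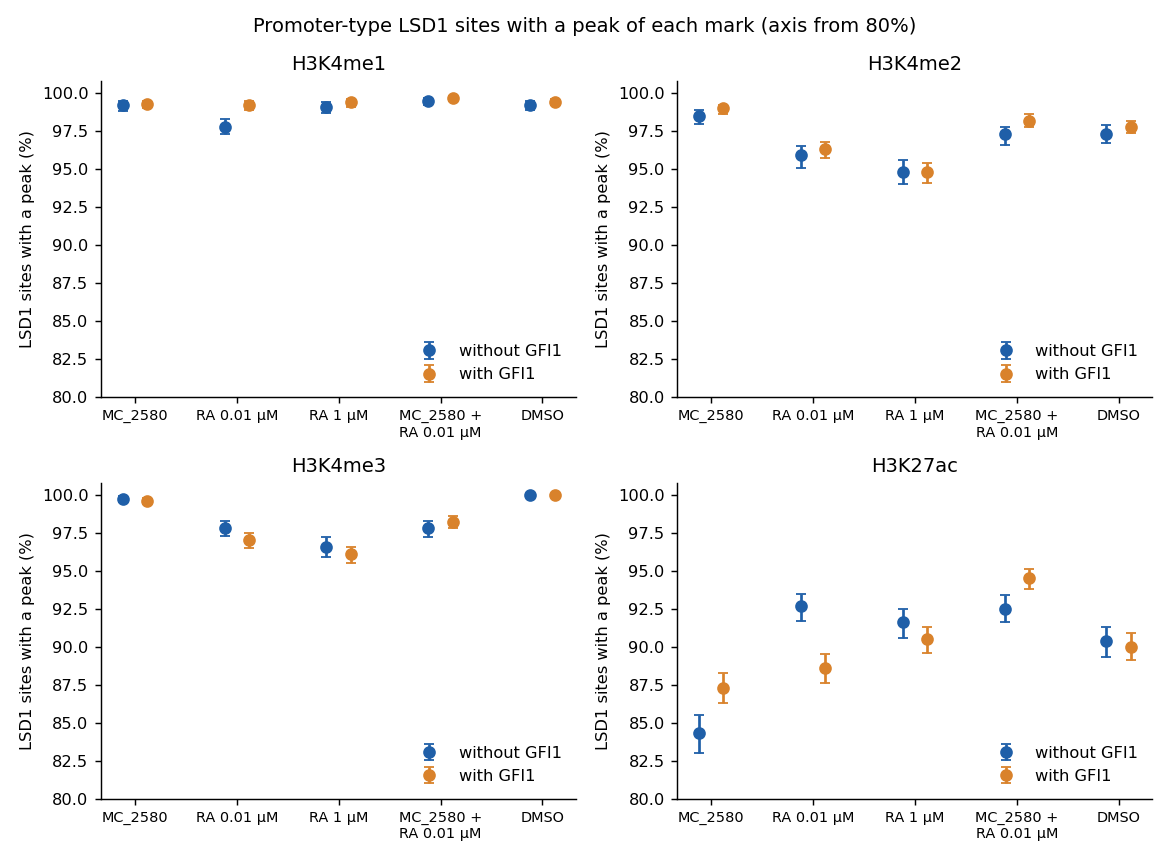
Share of promoter-type LSD1 sites (%, axis from 80) with a peak of each mark in each condition, without GFI1 (blue, n = 3245) and with GFI1 (orange, n = 4497). Bars are 95% exact binomial intervals, and each point is 1 library. H3K4me3 in DMSO is 100% by rule. The H3K27ac panel shows the low MC_2580 value, 84.3% without GFI1 and 87.3% with GFI1.

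H3K27ac was called at 84.3% of sites without GFI1 with MC_2580, at 92.7% with low-dose RA, at 91.6% with high-dose RA, at 92.5% in the combination and at 90.4% in DMSO. MC_2580 alone was thus the 1 condition below DMSO. With MC_2580, 229 of the 2932 sites acetylated in DMSO had no H3K27ac peak (7.81%), against a background of 11.3%, the share lost among all LSD1 sites acetylated in DMSO. Of the 313 sites without H3K27ac in DMSO, 32 had it with MC_2580 (10.2%), against a background of 20.0%, the share gained among all LSD1 sites without it. Both shares lay below the background, which takes in sites without H3K4me3. The share with MC_2580 minus that in DMSO was -6.07 points (95% normal interval -7.02 to -5.12). Over all LSD1 sites this change was smaller, at -4.63 points (-5.26 to -4.00).

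The RA conditions had more gains than losses of H3K27ac at these sites. Low-dose RA lost 112 sites (3.82%, background 10.1%) and gained 187 of 313 (59.7%, background 36.0%), a difference of 2.31 points (1.27 to 3.35). High-dose RA lost 98 (3.34%, background 7.27%) and gained 139 (44.4%, background 28.9%), a difference of 1.26 points (0.335 to 2.19). The combination lost 79 (2.69%, background 4.91%) and gained 150 (47.9%, background 46.9%), a difference of 2.19 points (1.28 to 3.10), with gains near the background. Over all LSD1 sites the changes were -0.215 points with low-dose RA, 0.486 with high-dose RA and 6.19 in the combination. At sites without GFI1 the signs went with the list lengths, and the part of list length in them was not tested. When each list was reduced to the same number of top-scoring peaks, the differences were -2.90 points with MC_2580, -1.54 with low-dose RA, -0.401 with high-dose RA and 0.216 in the combination. Only the MC_2580 difference kept both its sign and an interval away from 0 (-3.81 to -1.98). With low-dose RA the sign turned and the interval lay below 0 (-2.74 to -0.340). With high-dose RA the sign turned too, but the interval held 0 (-1.40 to 0.597).

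Over all H3K4me3 widths together, promoter-type sites without and with GFI1 differed in these H3K27ac changes in 3 of 4 treatments. With MC_2580 the change was -6.07 points without GFI1 and -2.69 with GFI1, a difference between classes of -3.38 points (-4.64 to -2.12). Losses and gains both entered it. The mark was lost at 7.81% of acetylated sites without GFI1 and 5.95% with GFI1, and gained at 32 of 313 unacetylated sites without GFI1 (10.2%) and 120 of 448 with GFI1 (26.8%). In the combination the changes were 2.19 and 4.45 points, a difference of -2.26 (-3.48 to -1.04). With low-dose RA they were 2.31 and -1.47 points, a difference of 3.78 (2.36 to 5.20). With high-dose RA they were 1.26 and 0.445 points, and the difference of 0.819 had an interval of -0.416 to 2.05. Both classes were read from the same libraries, but list length need not act on both alike, and its part in the class differences was not tested. With lists of equal length the class differences were -2.70 with MC_2580, -3.10 in the combination, 5.71 with low-dose RA and 1.51 with high-dose RA (0.168 to 2.86), the last now with an interval above 0. Averaged within quartiles of LSD1 peak width, the difference with MC_2580 was -4.46 points (-5.83 to -3.10), and within chromosomes it was -3.98 (-5.28 to -2.68). Counted by H3K4me3 peak, the difference with MC_2580 lay at widths up to 3010 bases. At 607 to 1956 bases H3K27ac went from 79.9% in DMSO to 70.7% without GFI1. With GFI1 it went from 78.8% to 79.0%. At 3012 to 4424 bases the falls were alike, from 97.4% to 92.6% and from 93.8% to 88.9%. At 4425 bases or more the fall was larger with GFI1. With low-dose RA the narrowest peaks had 80.9% and 69.2%, and changes at 3012 to 4424 bases were alike. No intervals were computed for these.

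The sites that lost H3K27ac with MC_2580 had narrow H3K4me3 peaks and weak H3K27ac. The 229 sites without H3K27ac under MC_2580 had a median H3K27ac score of 121 in DMSO, and the 2703 that kept it 1688. Their H3K27ac peaks in DMSO had a median width of 2384 bases, against 4371 bases where the mark was kept, and their H3K4me3 peaks 2264 against 3249 bases. This was not particular to MC_2580. Sites that lost H3K27ac with low-dose RA, high-dose RA and the combination had narrower H3K4me3 peaks still, with medians of 1600, 1790 and 1790 bases. Their median H3K27ac scores in DMSO were 328, 157 and 251. Gains can only come from the 313 sites without H3K27ac in DMSO, whose H3K4me3 peaks had a median width of 1943 bases. Sites that gained the mark had medians of 2097 bases with MC_2580, 2197 with low-dose RA, 2191 with high-dose RA and 2074 in the combination. They were thus not narrower than the sites they came from. In the narrowest quartile of H3K4me3 peaks, H3K27ac was called at 71.6% of sites with MC_2580, 81.6% with low-dose RA, 80.8% with high-dose RA, 83.2% in the combination and 80.6% in DMSO. In the broadest quartile the share was between 95.8% with MC_2580 and 98.3% with low-dose RA, with 97.9% in DMSO. LSD1 scores differed less, with medians of 341 where H3K27ac was lost with MC_2580 and 361 where it was kept.

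H3K27ac was far more frequent at narrow H3K4me3 peaks that held LSD1 sites than at those with neither LSD1 nor GFI1. These sets were not matched for H3K4me3 strength. Over all widths the median H3K4me3 score was 1666 for peaks holding sites without GFI1 and 346 for those with neither. The part of this in the H3K27ac shares was not tested. Among H3K4me3 peaks of 607 to 1956 bases, 806 held sites without GFI1 and 5790 had neither LSD1 nor GFI1. H3K27ac was called at 70.7% of the 806 with MC_2580 and 79.9% in DMSO, against 24.8% of the 5790 with MC_2580 and 33.0% in DMSO. Among peaks of 4425 bases or more the shares in DMSO were 98.9% with such LSD1 sites and 97.0% without LSD1 and GFI1. MC_2580 was the lowest condition in every width class of both sets. With GFI1 the narrow peaks were lowest with low-dose RA instead, at 69.2%, against 79.0% with MC_2580 and 78.8% in DMSO. H3K4me1 followed the same order in DMSO at narrow peaks, with 98.5% where LSD1 lay without GFI1 and 67.4% where neither lay.

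**Figure D3:**
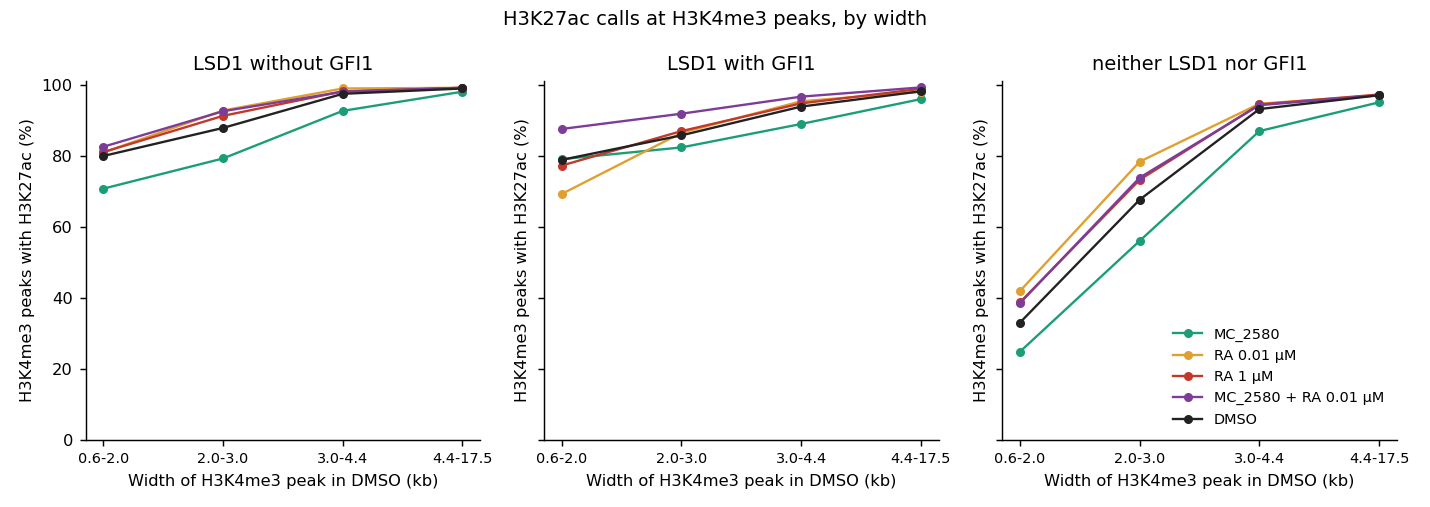
Share of H3K4me3 peaks (%) with an H3K27ac peak, by width of the H3K4me3 peak in DMSO (kb) and condition, for peaks holding LSD1 sites without GFI1 (left), LSD1 sites with GFI1 (middle), and neither LSD1 nor GFI1 (right). Each line is 1 library. In the narrowest class the DMSO value is 79.9% on the left, 78.8% in the middle and 33.0% on the right.

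Single regions show how these calls look. The highest-scoring site, chr20:44031695-44035582 on hg18, lay wholly inside an H3K4me3 peak, its centre at 54.6% of the way across, and had all 4 marks in all 5 conditions. Its H3K27ac peak spanned 4806 bases with MC_2580, 9856 with low-dose RA, 9500 with high-dose RA, 7311 in the combination and 7745 in DMSO. At chr1:27829801-27834607, the highest-scoring site that lost H3K27ac with MC_2580, there was no H3K27ac peak with MC_2580 and one of 26503 bases with low-dose RA, 23435 with high-dose RA, 25338 in the combination and 5096 in DMSO. The H3K4me3 peak of that site spanned 5541 bases with MC_2580, 19730 with low-dose RA, 20133 with high-dose RA, 7045 in the combination and 3156 in DMSO. Both marks there were broader in every RA condition than with MC_2580 or in DMSO, and the nearest GFI1 peak lay 922 bases away.

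The site at chr16:27317180-27322500 had an H3K27ac peak whenever RA was given and none with MC_2580 alone or in DMSO, although all 3 methylation marks were called in every condition. A site at chr20:580325-583234 had H3K27ac in all 4 treatments, with a peak of 2854 bases with MC_2580 and 7330 bases with high-dose RA, and none in DMSO. The second-highest site, chr9:132799787-132803748, touched its H3K4me3 peak over 640 bases with its centre outside it. It had H3K27ac with MC_2580, with low-dose RA and in DMSO, but not with high-dose RA or in the combination.

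H3K4me3 was called in treated cells at most sites without GFI1. A peak was missing at 9 of 3245 sites with MC_2580 (0.277%, background 0.323% of all promoter-type sites), 70 with low-dose RA (2.16%, background 2.65%), 111 with high-dose RA (3.42%, background 3.71%) and 72 in the combination (2.22%, background 1.96%). As presence in DMSO was required, these counts can only be losses. Each share lay near its background. The DMSO list was the shortest, and with lists of equal length the changes were -2.34 points with MC_2580, -4.90 with low-dose RA, -6.35 with high-dose RA and -5.12 in the combination. Losses were again at narrow, weak peaks, and the 111 sites without H3K4me3 under high-dose RA had a median H3K4me3 width of 1281 bases in DMSO, against 3076 bases where it was kept. H3K27ac peaks at those 111 sites were wide in DMSO, with a median of 5956 bases against 4133 bases. The loss with low-dose RA was smaller without GFI1 than with GFI1 by 0.845 points (0.139 to 1.55), and in the other treatments the interval of the class difference held 0. The site at chr11:118742389-118744932 had H3K4me3 in DMSO only, in a peak of 1114 bases, with H3K4me1, H3K4me2 and H3K27ac called in every condition.

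Where H3K4me3 was kept, its peak was wider in treated cells. The median ratio to the width in DMSO was 1.27 with MC_2580, 1.23 with low-dose RA, 1.14 with high-dose RA and 1.14 in the combination, and 97.4%, 91.7%, 82.4% and 78.4% of peaks were wider. H3K4me3 peaks with neither LSD1 nor GFI1 had ratios of 1.31, 1.29, 1.19 and 1.14 in the same order, so wider peaks were found without LSD1 as well. At 1 kb from the LSD1 centre, H3K4me3 covered 84.4% of sites with MC_2580, 80.0% with low-dose RA, 75.4% with high-dose RA, 76.1% in the combination and 68.9% in DMSO.

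H3K4me1, which LSD1 can demethylate, was called at 99.2% of sites without GFI1 with MC_2580, 97.8% with low-dose RA, 99.1% with high-dose RA, 99.5% in the combination and 99.2% in DMSO. Losses numbered 8 with MC_2580 (0.248%, background 0.416%), 52 with low-dose RA (1.61%, background 2.85%), 15 with high-dose RA (0.466%, background 1.45%) and 4 in the combination (0.124%, background 0.299%), out of 3220. Only 25 sites lacked the mark in DMSO. Of these, 7 had it with MC_2580 (background 39.7%), 7 with low-dose RA (background 11.5%), 10 with high-dose RA (background 14.5%) and 14 in the combination (background 53.9%). The change with low-dose RA was -1.39 points without GFI1 and -0.222 with GFI1, a class difference of -1.16 (-1.68 to -0.645). In the other treatments the interval of the class difference held 0. The change of 0.308 points in the combination turned sign when the centre base had to be covered, to -3.14, and with lists of equal length, to -0.277. By centre base the change was -2.22 points with MC_2580, -11.9 with low-dose RA and -5.40 with high-dose RA, against -0.0308, -1.39 and -0.154 by any overlap. With lists of equal length it was -2.22 with low-dose RA and -1.05 with high-dose RA.

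The H3K4me1 peaks themselves were narrower in the RA conditions. The median ratio to the DMSO width was 1.00 with MC_2580, 0.731 with low-dose RA, 0.833 with high-dose RA and 0.930 in the combination. The LSD1 centre was covered by H3K4me1 at 91.8%, 81.2%, 88.5% and 90.7% of sites in that order, against 93.7% in DMSO. A centre free of H3K4me1 with peaks on both sides within 2 kb was found at 6.47% of sites with MC_2580, 13.3% with low-dose RA, 9.09% with high-dose RA, 8.47% in the combination and 4.78% in DMSO. With low-dose RA cover was highest 600 bases off the LSD1 centre, at 85.0%. Sites with GFI1 had the same order, with 86.4% of centres covered with low-dose RA and 94.8% in DMSO. The H3K4me1 list of low-dose RA covered 161 Mb and that of DMSO 203 Mb, and the part of this in the values was not tested.

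**Figure D4:**
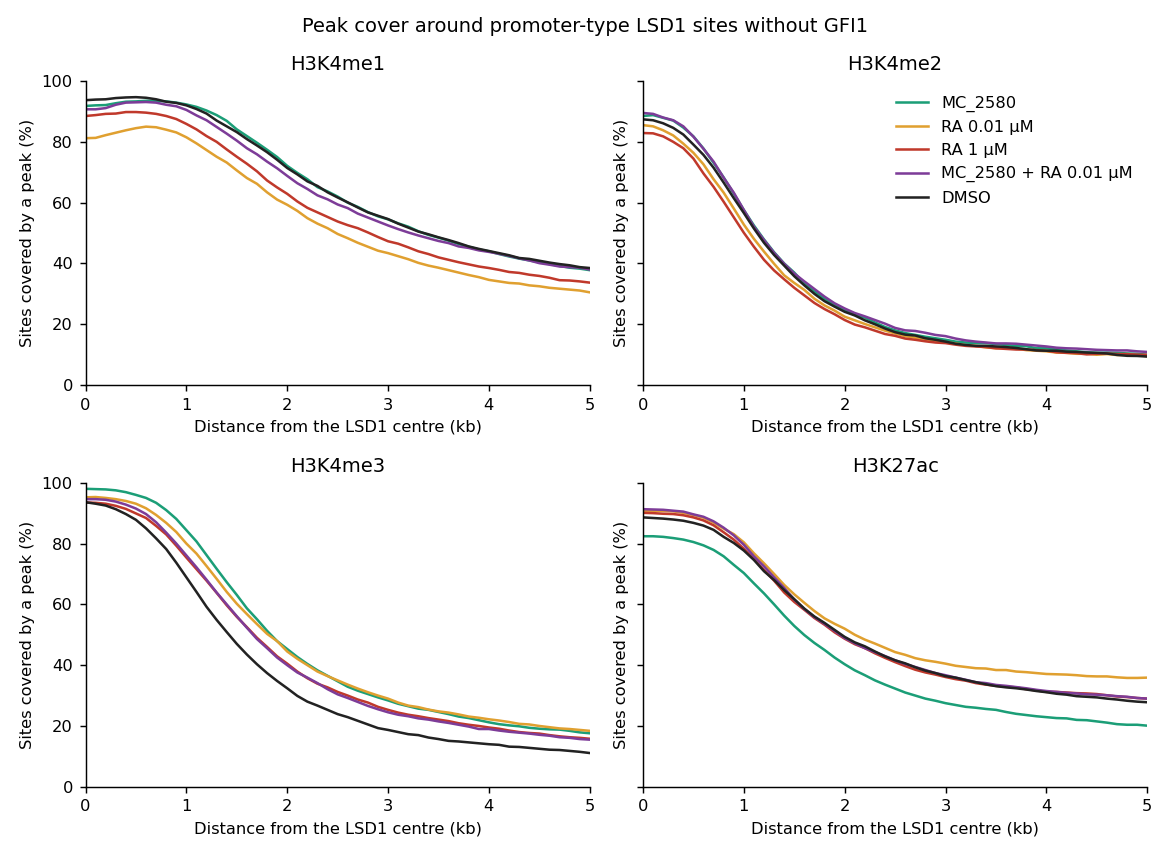
Share of promoter-type LSD1 sites without GFI1 (%, n = 3245) covered by a peak of each mark at each distance from the LSD1 centre (kb, both sides averaged), 1 line per condition and library. H3K4me1 is lowest at the centre with low-dose RA (81.2% against 93.7% in DMSO), H3K4me3 covers 84.4% of sites at 1 kb with MC_2580 against 68.9% in DMSO, and H3K27ac is lowest with MC_2580 at every distance drawn.

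H3K4me2, the other LSD1 substrate, was called at 98.5% of sites without GFI1 with MC_2580, 95.9% with low-dose RA, 94.8% with high-dose RA, 97.3% in the combination and 97.3% in DMSO. Of 3159 sites with the mark in DMSO, MC_2580 lost 11 (0.348%, background 1.09%), low-dose RA 69 (2.18%, background 7.45%), high-dose RA 100 (3.17%, background 8.13%) and the combination 35 (1.11%, background 2.69%). Of 86 sites without it, 49 gained it with MC_2580 (57.0%, background 42.0%), 21 with low-dose RA (24.4%, background 12.6%), 18 with high-dose RA (20.9%, background 16.9%) and 32 in the combination (37.2%, background 35.5%). The change was 1.17 points with MC_2580 (0.705 to 1.64) without GFI1 and 1.11 with GFI1. With lists of equal length it was -0.0308 without GFI1 (-0.471 to 0.409), so the small gain with MC_2580 was not seen there. In the other alternatives the gain kept its sign, though by centre base its interval held 0. The MC_2580 list had 50736 peaks and that of DMSO 40598, and the part of list length in the gain was not tested. The change in the combination was -0.0924 points (-0.587 to 0.402), and by centre base it was 1.20 (0.480 to 1.91). The class difference had an interval holding 0 in all 4 treatments. H3K4me2 covered the LSD1 centre at 62.5% of the 597 sites in the outermost sixths with MC_2580 and 57.1% in DMSO, against 95.4% and 95.1% of the 1627 in the middle part.

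At chr14:22017087-22018744, in an H3K4me3 peak of 11684 bases, several calls changed with RA. H3K4me2 and H3K27ac were called with MC_2580 and in DMSO but in none of the RA conditions, H3K4me3 was called with MC_2580, with low-dose RA and in DMSO, and H3K4me1 was called throughout. The H3K27ac peak over it spanned 16947 bases with MC_2580 and 46376 bases in DMSO. The opposite case, chr1:23560654-23562526, had H3K4me3 in all 5 conditions and no other mark in any. Its H3K4me3 peak spanned 12951 bases with MC_2580 and 4304 bases in DMSO.

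LSD1 itself stayed at these sites with MC_2580. A peak of the MC_2580 list overlapped 3171 of 3245 sites (97.7%, 97.1 to 98.2%), and the 74 without one (2.28%) compare with a background of 7.79% over all LSD1 sites. Retention was 96.6% at promoter-type sites with GFI1, 79.3% at sites with GFI1 and no H3K4me3, and 90.6% at sites with neither. Promoter-type sites without GFI1 had the highest retention of the 4 classes, and the difference from promoter-type sites with GFI1 was small. The MC_2580 peaks were wider, with a median of 2959 bases against 2109 bases in DMSO at the same sites and a median ratio of 1.31. The MC_2580 list held 18822 peaks against 12562 in DMSO, and the median ratio lay between 1.27 and 1.36 in the 4 classes. The 74 sites without LSD1 under MC_2580 had a median LSD1 score of 270.1 in DMSO, against 359.9 where it was kept. The highest-scoring of them, chrX:23886740-23888585, had H3K4me1, H3K4me3 and H3K27ac in every condition.

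The chromosomes differed in how many promoter-type LSD1 sites had no GFI1 peak. The share of promoter-type LSD1 sites without GFI1 was 78.6% (68.3 to 86.8%, 66 of 84) on chromosome X, 58.2% on chromosome 22 and 25.0% (21.5 to 28.8%, 143 of 571) on chromosome 12. The GFI1 list held 0.238 peaks per H3K4me3 peak on chromosome X, 0.585 on 22 and 2.90 on 12, while LSD1 had 0.236, 0.593 and 0.709. On the 10 chromosomes with fewer GFI1 than H3K4me3 peaks, 53.0% (51.1 to 54.8%) of promoter-type sites lacked GFI1, and on the other 13 chromosomes 35.6% (34.3 to 37.0%). Bins of 20 Mb also differed. In the first 20 Mb of chromosome 9, 0 of 42 promoter-type sites lacked GFI1, with 1169 GFI1 peaks beside 97 H3K4me3 peaks. Taking 3 counts as the limit that a count of 0 allows, the share could be up to 7.14%, which is not an exact binomial limit. From 100000001 to 120000000 on the same chromosome, 16 of 41 lacked it, with 126 GFI1 peaks. These bins are extremes, and other regions did not follow the order. Chromosomes 8 and 19 had 1.21 and 1.36 GFI1 peaks per H3K4me3 peak, yet 56.3% and 56.0% of their promoter-type sites lacked GFI1. From 120000001 to 140000000 on chromosome 8, 19 of 36 sites (52.8%) lacked it, with 482 GFI1 peaks beside 92 H3K4me3 peaks. The part of GFI1 peak number in the class was not tested.

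**Figure D5:**
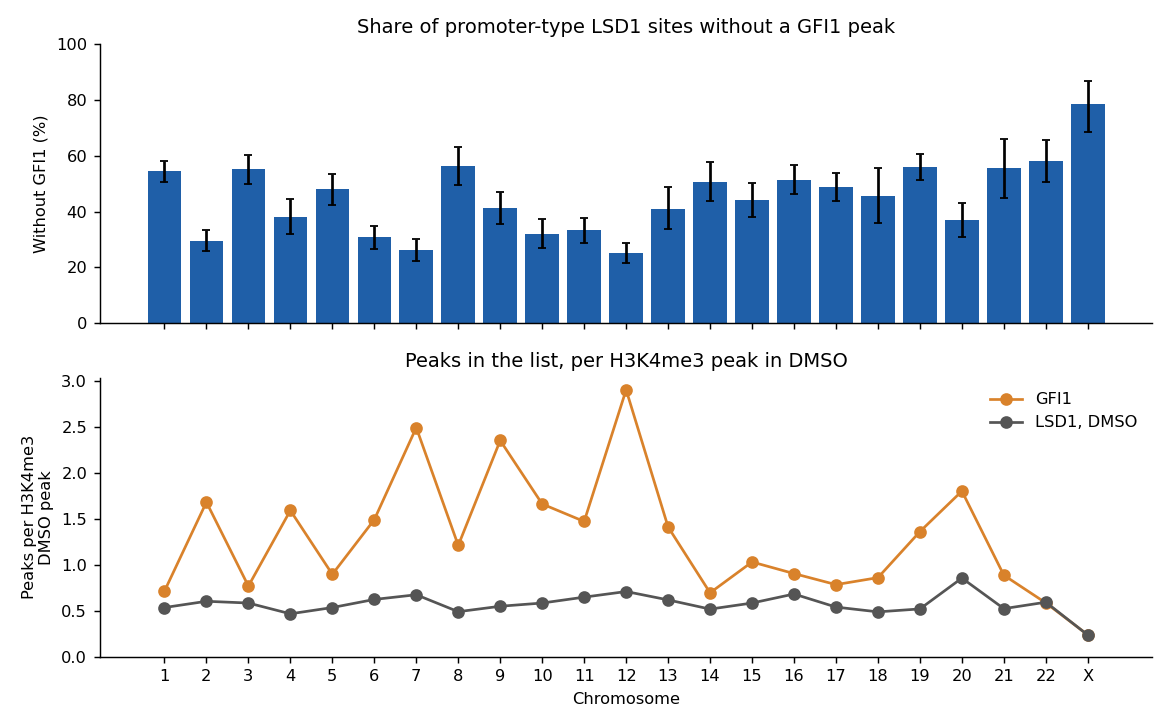
Top, share of promoter-type LSD1 sites without a GFI1 peak on each chromosome (%, bars are 95% exact binomial intervals). Bottom, GFI1 peaks and LSD1 DMSO peaks per H3K4me3 DMSO peak on the same chromosomes. The share is lowest on chromosome 12 (25.0%), where GFI1 peaks are densest (2.90 per H3K4me3 peak), and highest on X (78.6%), where they are sparsest (0.238).

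The H3K27ac difference between the classes had the same sign on both groups of chromosomes. On the 10 with few GFI1 peaks, the change with MC_2580 was -5.53 points without GFI1 and 0.228 with GFI1, a difference of -5.75 (-7.66 to -3.85). On the other 13 it was -6.53 and -3.90 points, a difference of -2.63 (-4.32 to -0.944). With low-dose RA the class differences were 4.17 (1.89 to 6.45) and 3.83 (1.95 to 5.71) in the same order. In the combination they were -3.35 (-5.27 to -1.43) and -1.42 (-3.03 to 0.195), so on the 13 chromosomes the interval held 0.

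The edge of the rule was thinly populated. Most sites lay far from GFI1, with a median gap of 17975 bases to the nearest GFI1 peak, 287 sites (8.84%) within 1 kb and 2006 (61.8%) beyond 10 kb. Just inside the rule, 41 sites had a GFI1 peak within 100 bases and 9 shared 100 bases or fewer with H3K4me3. The site at chr10:80523023-80525403 abutted a GFI1 peak, with 0 bases between them. Just outside, 17 promoter-type sites with GFI1 shared 100 bases or fewer with it, 9 bases at chr16:82543340-82545543, and 15 sites without GFI1 had an H3K4me3 peak within 100 bases but not on them. The GFI1 list had a median score of 72.7, and at 1855 of the 4497 sites with GFI1 (41.2%) every GFI1 peak scored under 100, so a stricter GFI1 list moves many sites into the class without it. With a minimum score of 100 in the GFI1 and histone lists the class held 4478 sites, and the class difference in H3K27ac with MC_2580 was -3.33 points (-4.78 to -1.87).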

How the data were processed

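Per the labels, NB4 chromatin was immunoprecipitated after 24 h of treatment, with 1 library per antibody and condition. Peak lists came with 23 of 25 samples, and 2 inputs were left out. Per the submitters' processing notes, Bowtie 1.0.1, MACS 1.4.1, FastQC 0.10.0 and 0.11.5, CASAVA 1.8 and bcl2fastq 2 were used with hg18. Each deposited list gives a position and a score per peak, the authors' value, with many strong peaks tied. The LSD1 lists had been filtered by a step not given in the sources used here.

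Overlaps of at least 1 base were counted in Python 3.11.15 (NumPy 2.4.6, SciPy 1.17.1). Matplotlib 3.10.9 drew the figures. An LSD1 site overlapping several peaks of a mark was measured on the peak sharing the most bases. Shares have 95% exact binomial intervals and differences 95% normal intervals. No p-value was computed. Named regions are the highest-scoring or extreme sites of each kind. The overlap code was run on simulated lists of well separated sites, recovering 3036 of 3036 planted sites. That run checks the counting of overlaps only, not the real lists. The class and the comparisons were chosen with earlier results of these data known. No genome or gene annotation on hg18 was used, so no sequence or gene name is given.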

Additional observations from a re-analysis of the deposited data

How the results depend on the processing

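Changes from DMSO were paired by site, but no replicates could be paired because each antibody and condition had 1 library. Of 100 alternative values of a difference between conditions or classes, 8 had the opposite sign to the value reported and 1 was 0. Of these 8, 5 concerned a reported value whose interval lay away from 0 and 3 one whose interval held 0. The cause was not tested. The alternatives for the class differences in H3K27ac were added after seeing the data. The class held 2958 sites when GFI1 within 1 kb was also barred, 4478 with a minimum score of 100 in the histone and GFI1 lists, and 4593 when the centre base had to lie in the peak, against 3245 as reported. The median LSD1 width was then 2224 bases with the minimum score and 2327 bases by centre base, and the middle of 3 equal parts held 52.4% with the minimum score. LSD1 retention with MC_2580 was 99.5% with 1 minimum score for both LSD1 lists and 78.9% with 50% reciprocal overlap.

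With the minimum score of 100, H3K4me1 changed by -0.469 points with MC_2580, -3.95 with low-dose RA and -0.737 with high-dose RA, H3K4me3 by -1.23 with low-dose RA and -2.32 with high-dose RA, and H3K27ac by 3.19 in the combination. By centre base, H3K4me1 changed by -2.22 with MC_2580, -11.9 with low-dose RA, -5.40 with high-dose RA and -3.14 in the combination, where the sign turned. H3K4me2 changed by 0.348, -2.85, -5.20 and 1.20 in the same order of treatments, the last opposite in sign to the reported -0.0924, whose interval held 0. The minimum score gave 0.380 for that same change, and 1 site per H3K4me3 peak gave 0.0317 for H3K4me1 with MC_2580, reported as -0.0308. By centre base, H3K27ac changed by 1.20 with low-dose RA, with a class difference of 6.14.

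With lists of equal length, H3K4me1 changed by -2.22 with low-dose RA, -1.05 with high-dose RA and -0.277 in the combination, the last a turned sign. H3K4me2 changed by -0.0308 with MC_2580, also turned, by -3.64 with high-dose RA and by -0.740 in the combination. H3K4me3 changed by -2.34, -4.90, -6.35 and -5.12 with MC_2580, low-dose RA, high-dose RA and the combination. H3K27ac changed by -2.90, -1.54, -0.401 and 0.216 in that order, the middle pair with turned sign, and the class difference with low-dose RA was 5.71. Unknown read depth limits all calls of weak peaks.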

Other observations

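Promoter-type LSD1 sites without GFI1 were unevenly spread. In 1 Mb windows, 1275 windows held at least 1 site, 514 of them exactly 1, and 173 held 5 or more. The fullest windows lay on chromosome 19, from 17000001 to 18000000 and from 18000001 to 19000000, with 18 sites each among 25 promoter-type sites in each window. A window from 11000001 to 12000000 on the same chromosome held 17 of 21. H3K4me3 peaks in DMSO numbered 42, 38 and 45 in these windows, in the order given. The spread of the sites was not compared with that of all H3K4me3 peaks.

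Absence of GFI1 at the LSD1 peak was not always absence from the H3K4me3 peak. Of the 3158 H3K4me3 peaks that held these sites, 275 (8.71%) met a GFI1 peak elsewhere along their length. Among all 21688 H3K4me3 peaks in DMSO, 7008 (32.3%) met one. The rule bars GFI1 from the LSD1 peak, which covered a median of 65.0% of the H3K4me3 peak. A share below that of all H3K4me3 peaks was thus favoured in advance.

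An H3K4me3 peak of 14931 bases, chr1:154725393-154740323, held 3 LSD1 sites without GFI1, and with MC_2580 all 3 overlapped a single LSD1 peak of 14414 bases. In DMSO these sites were 2951, 2496 and 6279 bases wide.

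The widest LSD1 site without GFI1, chr11:67530635-67539259, was 8625 bases wide in DMSO and met an LSD1 peak of 16155 bases with MC_2580. Its H3K4me3 peak in DMSO, of 2957 bases, lay wholly inside the LSD1 peak.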
